A study of Mus musculus with 4 samples.

Results

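Fragments of 3 mouse transfer RNAs, tRNA-His, tRNA-Cys and tRNA-SeC (the selenocysteine tRNA), were followed through small RNA sequencing of sperm. A member was a distinct sequence of 18 nt or longer whose every deposited annotation named the same one of these 3 tRNAs. The rule found 1121 members, of which 522 belonged to tRNA-His, 235 to tRNA-Cys and 364 to tRNA-SeC, out of 14318 sequences given to a single tRNA amino acid and 1442059 sequences of 18 nt or longer in all. The stressed group was 2 libraries labelled Mdd, from C57BL males kept under a daily random stressor. The stressors were an empty or tilted cage, wet bedding, white noise, a strobe light, tube restraint, isolation and a disturbed light cycle, a procedure abbreviated CUMS that the study uses to obtain depressive-like males. It was set against 2 libraries labelled control, from undisturbed C57BL males. No age is given for either group. The labels name testis and testicular cells as the source, whereas the extraction protocol names sperm, and both groups had RNA of 18 to 40 nt taken into the library. No label says that the 2 libraries of a group came from separate animals, so p-values here measure the spread between libraries, which may be technical.

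A tRNA carries an amino acid to the ribosome and reads the matching codon through its anticodon, and enzymes such as angiogenin can cut it in the anticodon loop into a 5′ and a 3′ piece or elsewhere into shorter fragments. Sperm is known for a large content of such fragments, mostly from the 5′ side. Mature tRNA-His is unusual in carrying a guanine before its first encoded base, added after transcription by the guanylyltransferase THG1L and read by the histidyl-tRNA synthetase. tRNA-SeC is charged with serine that is then converted to selenocysteine, and decodes UGA in selenoprotein mRNAs. 5′ pieces of tRNA-His, tRNA-Asp and tRNA-Lys are known as hormone-dependent fragments from human breast and prostate cancer cells, and tRNA-Cys and tRNA-Ala fragments that open with a run of guanines are known in human cells for inhibiting translation.

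The tRNAs themselves are shown first, since every fragment is placed on them. They were joined from overlapping fragments of these libraries, and capitals mark the anticodon. The tRNA-SeC sequence is its longest 5′ fragment only.
tRNA-His: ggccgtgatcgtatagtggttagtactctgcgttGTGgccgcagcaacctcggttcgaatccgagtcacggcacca
tRNA-Cys: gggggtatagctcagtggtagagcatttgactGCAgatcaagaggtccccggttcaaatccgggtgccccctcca
tRNA-SeC: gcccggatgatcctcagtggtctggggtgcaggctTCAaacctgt
Positions are counted along each tRNA from its first encoded base, so the first letter of the tRNA-His line is position 0, the added guanine. The anticodon then lies at 34 to 36 in tRNA-His, 33 to 35 in tRNA-Cys and 36 to 38 in tRNA-SeC. RefSeq (GRCm38.p6) lists 10 tRNA-His genes and 57 tRNA-Cys genes, with 49 of the tRNA-Cys genes on 1 chromosome, and no entry was matched for tRNA-SeC. The fragments were placed in the libraries' own sequence because the deposited files are on mm9.

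The fragments that carry most reads are shown next, as they define what each tRNA left in sperm. In the tRNA-His lines, capitals mark the added guanine and any anticodon base reached.
His 0 to 34: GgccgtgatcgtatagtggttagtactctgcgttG
His 1 to 33: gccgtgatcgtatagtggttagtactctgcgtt
His 1 to 34: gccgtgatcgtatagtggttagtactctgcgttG
His 2 to 34: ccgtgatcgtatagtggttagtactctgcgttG
His 0 to 33: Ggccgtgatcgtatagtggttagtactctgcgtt
In the tRNA-Cys lines, the capital marks position 16, where 2 bases were read.
Cys 1 to 23: gggggtatagctcagTggtagag
Cys 1 to 24: gggggtatagctcagTggtagagc
Cys 1 to 25: gggggtatagctcagTggtagagca
Cys 1 to 22: gggggtatagctcagTggtaga
Cys 1 to 23, T16G: gggggtatagctcagGggtagag
In the tRNA-SeC lines, capitals mark anticodon bases.
SeC 1 to 37: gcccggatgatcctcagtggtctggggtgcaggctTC
SeC 1 to 22: gcccggatgatcctcagtggtc
SeC 1 to 19: gcccggatgatcctcagtg
SeC 16 to 48: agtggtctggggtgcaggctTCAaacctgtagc
SeC 17 to 48: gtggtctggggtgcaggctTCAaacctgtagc

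The libraries held 23748630 and 23806805 reads of 18 nt or longer in the Mdd libraries and 9706895 and 16763277 in the control libraries. Members took 160228 and 72113 of these in Mdd 1 and Mdd 2, and 77185 and 128664 in control 1 and control 2. Several features set libraries apart. In Mdd 2, 33.6% of all reads ended in 2 guanines, against 7.08% in Mdd 1, 10.0% in control 1 and 8.47% in control 2. Striated muscle miRNAs (miR-1a, miR-133a and miR-206) had 1669 and 1057 reads for each 1000000 miRNA reads in the Mdd libraries, 3954 in control 1 and 66844 in control 2. Germ cell miRNAs (miR-34, miR-449 and X-linked testis miRNAs, 6 of 7 detected) had 334032 and 261806 in the Mdd libraries, 295545 in control 1 and 134814 in control 2. Blood miRNAs had 67203 and 54370 in the Mdd libraries, 53186 in control 1 and 7114 in control 2. The endothelial miR-126a had 2616 and 942 in the Mdd libraries and 4632 and 14508 in the control libraries, and the gonadal somatic miR-202 had 5.64 and 103 in the Mdd libraries and 536 and 343 in the control libraries, both without overlap. Reads of 15 to 17 nt were 1.18% and 1.27% of the Mdd libraries but 24.4% and 26.95% of the control libraries. The part of these features in the results was not tested. Fragments of 17 nt, just outside the length limit and so not members, had 432 and 260 reads of tRNA-His in the Mdd libraries and 2246 and 3564 in the control libraries. Those of 18 nt, just inside it, had 2635 and 1245 reads in the Mdd libraries and 2327 and 3425 in the control libraries.

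Of the 1121 members, 238 were read in all 4 libraries and held 94.3% of the reads, and 545 were read in 1 library only. The Mdd libraries held 427 and 608 members and the control libraries 580 and 679. Ends were annotated as 5′ for 150 members, 3′ for 30 and neither for 940, with 1 mixed. Among the tRNA-His sequences of neither end were those starting at position 2, which held 14.5% and 13.7% of its reads in the Mdd libraries and 15.1% and 16.2% in the control libraries.

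Summed over their fragments, all 3 tRNAs had negative log2 changes in Mdd and none passed the test, and the tRNA-SeC change was positive with reads from 15 nt included (0.26) and with genome-matched sequences only (0.0088). tRNA-His took 0.888% and 0.701% of tRNA reads in the Mdd libraries and 1.27% and 1.18% in the control libraries. Both Mdd values lay below both control values, and an exact two-sided permutation test gave p = 0.333, the smallest that 2 against 2 libraries allow. Shares of 4 of 21 amino acids (19%) were separate in this way. tRNA-Cys took 1.28% and 0.358% in the Mdd libraries and 1.58% and 1.08% in the control libraries, with only Mdd 2 below the rest. tRNA-SeC took 0.804% and 0.513% in the Mdd libraries and 0.847% and 0.641% in the control libraries, and the groups overlapped. Mdd 2 was the lowest library in share for 7 of 21 amino acids, these 3 among them.

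In edgeR's quasi-likelihood test over the 21 amino acid totals, 0% were called at an adjusted p under 0.05. The log2 change of tRNA-His was −0.59 ± 0.62 (SE, n = 2 per group; edgeR adjusted p = 0.733), that of tRNA-Cys −0.70 ± 0.64 (edgeR adjusted p = 0.659) and that of tRNA-SeC −0.14 ± 0.56 (edgeR adjusted p = 0.943). At an unadjusted p under 0.05, 1 of 21 totals passed (4.76%), and it was none of these 3. Leaving out Mdd 1 took the tRNA-Cys change to −1.79 (edgeR adjusted p = 0.160) and leaving out Mdd 2 took it to −0.28, so its size rested on which Mdd library was kept. In bulk RNA, fewer cells of a type and less RNA per cell cannot be told apart.

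**Figure D1:**
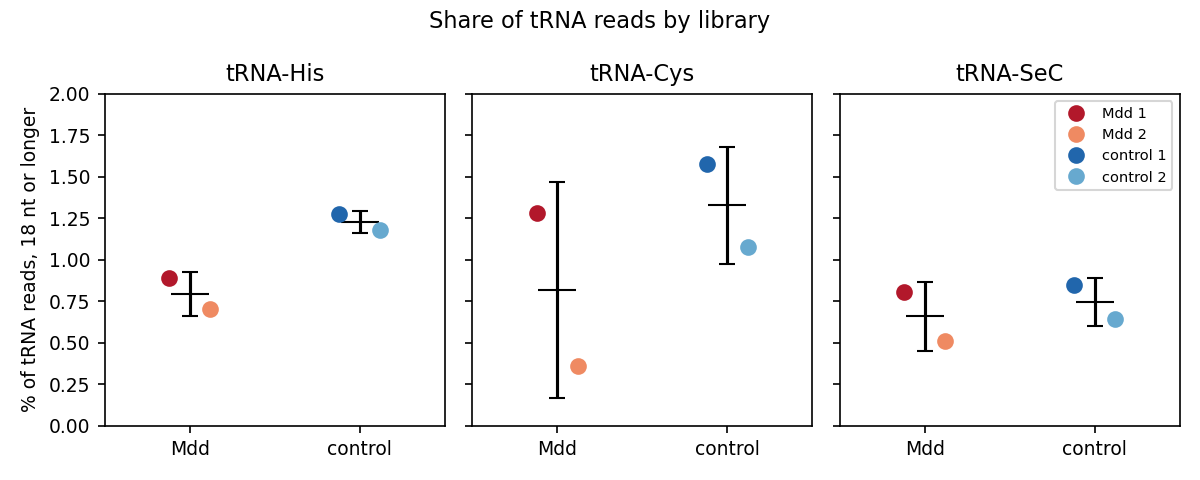
Share of tRNA reads of 18 nt or longer, in percent, for each of the 3 tRNAs. Points are libraries, the horizontal mark the mean of 2 and the bar ± 1 SD. Only the tRNA-His groups are separate, and Mdd 2 is the lowest point in all 3 panels.

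tRNA-His was read most as 5′ fragments ending in the anticodon loop, called loop-cut fragments here. Reads that started at positions 0 to 3 and ended in the anticodon loop made up 48.4% and 48.1% of its reads in the Mdd libraries and 46.6% and 49.4% in the control libraries. Among these, 59.1% and 52.3% in Mdd libraries ended on the first anticodon base, position 34, against 58.4% and 53.3% in control libraries. A further 31.8% and 39.7% ended 1 base earlier in Mdd libraries, against 30.9% and 39.2% in control libraries. Most of these reads thus ended at the same 2 positions in all 4 libraries, with overlapping groups. The letters TGG follow position 34, and reads ending in TGG were nearly missing (below). Whether the tRNA was cut where these reads end was not tested.

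The most read fragment, from position 0 to 34, had 10096 and 5461 reads in the Mdd libraries and 5097 and 9328 in the control libraries. As counts scaled to 1000000 reads of 18 nt or longer (CPM), that was 425 and 229 in the Mdd libraries and 525 and 556 in the control libraries. Both Mdd libraries were lower, at a log2 change of −0.44 ± 0.78 (SE, edgeR adjusted p = 0.9999). The second, from position 1 to 33 without the guanine, had 4983 and 4236 reads in the Mdd libraries and 2291 and 6888 in the control libraries, or 210 and 178 CPM against 236 and 411 CPM. The other 3 shown had log2 changes of −0.32, −0.79 and −0.69, and the Mdd CPM of all 5 lay below both control values, as for 36.4% of tested tRNA-His sequences and 30.3% of all tested sequences. These 5 fragments overlap in sequence and are not independent. Without control 2 the change of the second fragment was 0.08.

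The added guanine was common and went with the place of the 3′ end of the read. Reads starting at position 0 were 30.2% and 24.4% of tRNA-His reads in the Mdd libraries and 28.8% and 28.5% in the control libraries, and those starting at position 1 were 22.0% and 24.8% in the Mdd libraries and 18.0% and 24.4% in the control libraries. None of the reads with the extra guanine matched the genome. Among 5′ reads ending at position 34, unannotated ones with another extra base included, the extra guanine stood on 69.3% and 66.1% in the Mdd libraries and 71.2% and 69.9% in the control libraries. Among those ending at position 33 it stood on 18.1% and 18.0% in the Mdd libraries and 23.3% and 19.03% in the control libraries. Within every library the share was higher for reads ending at 34 than for those ending at 33. It did not rise with length in general. Another measure took only member reads that started at position 0 or 1. By it, the guanine share at position 32 was 70.4% and 55.0% in Mdd libraries and 72.3% and 67.1% in control libraries. At position 33 it was 19.7% and 19.6% in Mdd libraries and 26.8% and 21.4% in control libraries.

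A thymine stood in the same place before position 1 in 14.4% and 14.8% of the reads ending at 34 in the Mdd libraries and 13.1% and 11.7% in the control libraries. These sequences had no annotation in the files, so they are not members. The most read was a sequence of 35 nt with 2094 and 1220 reads in the Mdd libraries and 939 and 1566 in the control libraries.
Thymine start, 0 to 34: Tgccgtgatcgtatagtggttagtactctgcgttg
The capital is the thymine in place of the guanine.

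**Figure D2:**
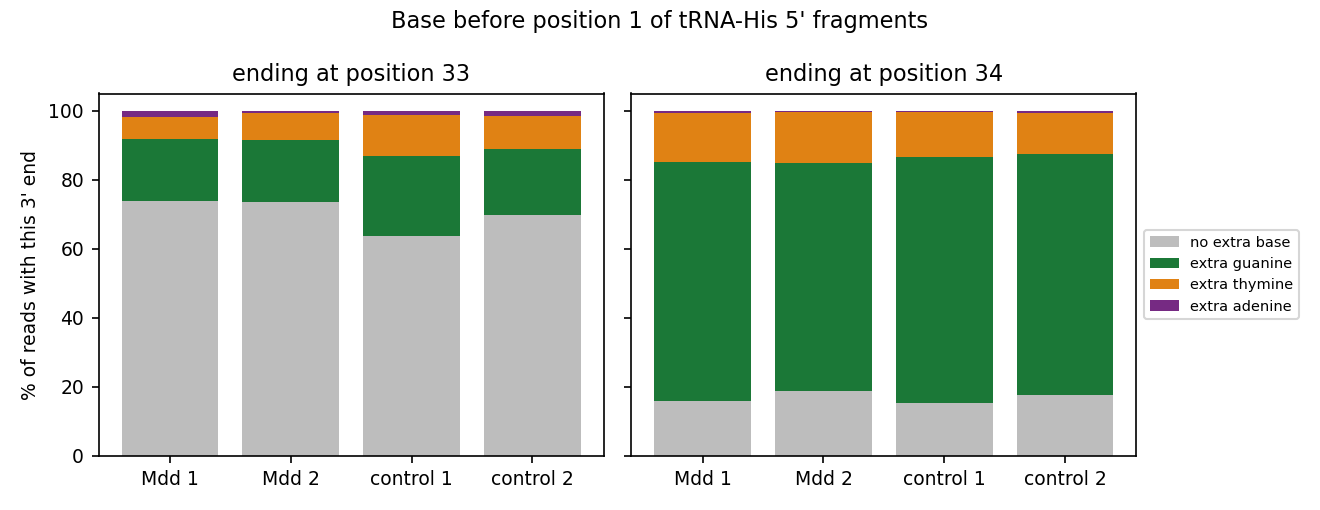
Base standing before position 1 of tRNA-His 5′ fragments, in percent of the reads that end at position 33 (left) or 34 (right), one bar per library. The extra guanine is on 66.1% to 71.2% of reads ending at position 34 and 18.0% to 23.3% of those ending at position 33.

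tRNA-His fragments were longer on average in both Mdd libraries. The mean length was 30.2 and 30.3 nt in the Mdd libraries and 29.1 and 29.4 nt in the control libraries, without overlap (exact permutation p = 0.333). Mean lengths were separate in this way for 5 of 21 amino acids (23.8%). Reads of 39 to 45 nt were 7.02% and 6.08% of tRNA-His in the Mdd libraries and 2.99% and 0.481% in the control libraries. Of all reads they were 4.64% and 4.56% in the Mdd libraries, 5.08% in control 1 and 0.564% in control 2, so control 2 was low in this range in general. Fragments from position 1 to 43 had 519 and 291 reads in the Mdd libraries and 83 and 17 in the control libraries. At the short end, 15 to 17 nt reads were 2.04% and 1.68% of all tRNA-His reads in the Mdd libraries and 21.2% and 17.4% in the control libraries, and with them included the Mdd minus control difference in mean length was 3.33 nt, against 1.04 nt from 18 nt.

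tRNA-Cys left almost only 5′ fragments that stopped before the anticodon. Reads annotated as 5′ ends held 96.8% and 86.0% of its reads in the Mdd libraries and 94.7% and 96.2% in the control libraries, with Mdd 2 low. Nearly all opened with the 5 guanines seen in the sequences above, in 99.997% and 99.965% of 5′ reads in the Mdd libraries and 99.994% and 99.993% in the control libraries. Loop-cut fragments were rare, at 1.22% and 1.26% in the Mdd libraries and 1.11% and 3.22% in the control libraries.

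The last base was position 23 in 64.4% and 64.3% of reads annotated as 5′ ends in the Mdd libraries and 66.4% and 64.1% in the control libraries. These shares lay close together although tRNA-Cys stood at 2905 CPM in Mdd 1 and 689 CPM in Mdd 2. The leading fragment, 1 to 23, had 39597 and 8486 reads in the Mdd libraries and 18886 and 27985 in the control libraries, or 1667 and 356 CPM against 1946 and 1669 CPM. Both Mdd values were lower, Mdd 1 by little, and the log2 change was −0.70 ± 1.08 (SE, edgeR adjusted p = 0.9999). The fragments 1 to 24, 1 to 25 and 1 to 22 had log2 changes of −0.87, −0.54 and −0.53, each low in Mdd 2.

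Position 16 was read as T or G. The T16G form made up 8.30% and 9.98% of 5′ reads in the Mdd libraries and 9.95% and 7.22% in the control libraries, and the groups overlapped. Fragments from 1 to 18 were read almost only in the G form, with 152 and 354 reads in the Mdd libraries and 195 and 353 in the control libraries. The T form of that length ends in TGG and had 0 and 0 reads in the Mdd libraries and 2 and 3 in the control libraries. Longer 5′ fragments were mostly of the T form, with 61255 and 12706 reads in the Mdd libraries and 28073 and 42690 in the control libraries.

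The 3′ side of tRNA-Cys, reads starting after the anticodon, took 2.43% and 10.0% in the Mdd libraries and 4.67% and 1.79% in the control libraries. The start at position 43 led, at 1.23% and 7.49% in the Mdd libraries and 3.198% and 0.832% in the control libraries. The most read fragment from there, 43 to 65, had 412 and 727 reads in the Mdd libraries and 806 and 240 in the control libraries. Its groups overlapped (log2 change −0.51 ± 1.10 SE, edgeR adjusted p = 0.9999). The fragment 43 to 64, which ends in 2 guanines, had 282 and 386 reads in the Mdd libraries and 82 and 13 in the control libraries. For 43 to 64 both Mdd libraries were higher (log2 change 2.08 ± 1.32 SE, edgeR adjusted p = 0.824). The change of 43 to 64 was 4.57 without control 1, 1.19 without control 2 and 1.34 without Mdd 2.
Cys 43 to 64: aggtccccggttcaaatccggg

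tRNA-SeC left loop-cut fragments that ended inside the anticodon. The 5′ ends held 77.8% and 77.4% of its reads in the Mdd libraries and 72.9% and 71.1% in the control libraries, without overlap (exact permutation p = 0.333). Loop-cut fragments were 62.5% and 48.4% of reads in the Mdd libraries and 45.1% and 49.4% in the control libraries, and 91.5% and 89.0% of them in the Mdd libraries, against 91.3% and 89.7% in the control libraries, ended on the second anticodon base, position 37. The fragment 1 to 37 had 23343 and 9382 reads in the Mdd libraries and 6918 and 12114 in the control libraries, or 983 and 394 CPM against 713 and 723 CPM. Mdd 1 was the highest and Mdd 2 the lowest, and the log2 change was 0.17 ± 0.86 (SE, edgeR adjusted p = 0.9999). It was −0.21 without Mdd 1 and 0.41 without Mdd 2.

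The short fragment 1 to 22 had 2754 and 2327 reads in the Mdd libraries and 2950 and 2237 in the control libraries, or 116 and 97.7 CPM against 304 and 133.4 CPM, both Mdd values lower (log2 change −0.66 ± 0.79 SE, edgeR adjusted p = 0.9999). The change was 0.01 without control 1 and −1.14 without control 2. The letters TGG follow position 22 directly, and reads ending in TGG were nearly missing (below). The fragments 16 to 48 and 17 to 48 cover the whole anticodon. The fragment 16 to 48 had 941 and 170 reads in the Mdd libraries and 719 and 1044 in the control libraries. Reads covering the whole anticodon were 13.9% and 6.51% of tRNA-SeC in the Mdd libraries and 15.8% and 16.8% in the control libraries, without overlap. The mean length was 32.3 and 31.04 nt in the Mdd libraries and 30.03 and 30.7 nt in the control libraries, without overlap (exact permutation p = 0.333). The Mdd minus control difference was 1.29 nt, 0.675 nt without Mdd 1, 1.90 nt without Mdd 2 and 3.50 nt with reads from 15 nt included.

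**Figure D3:**
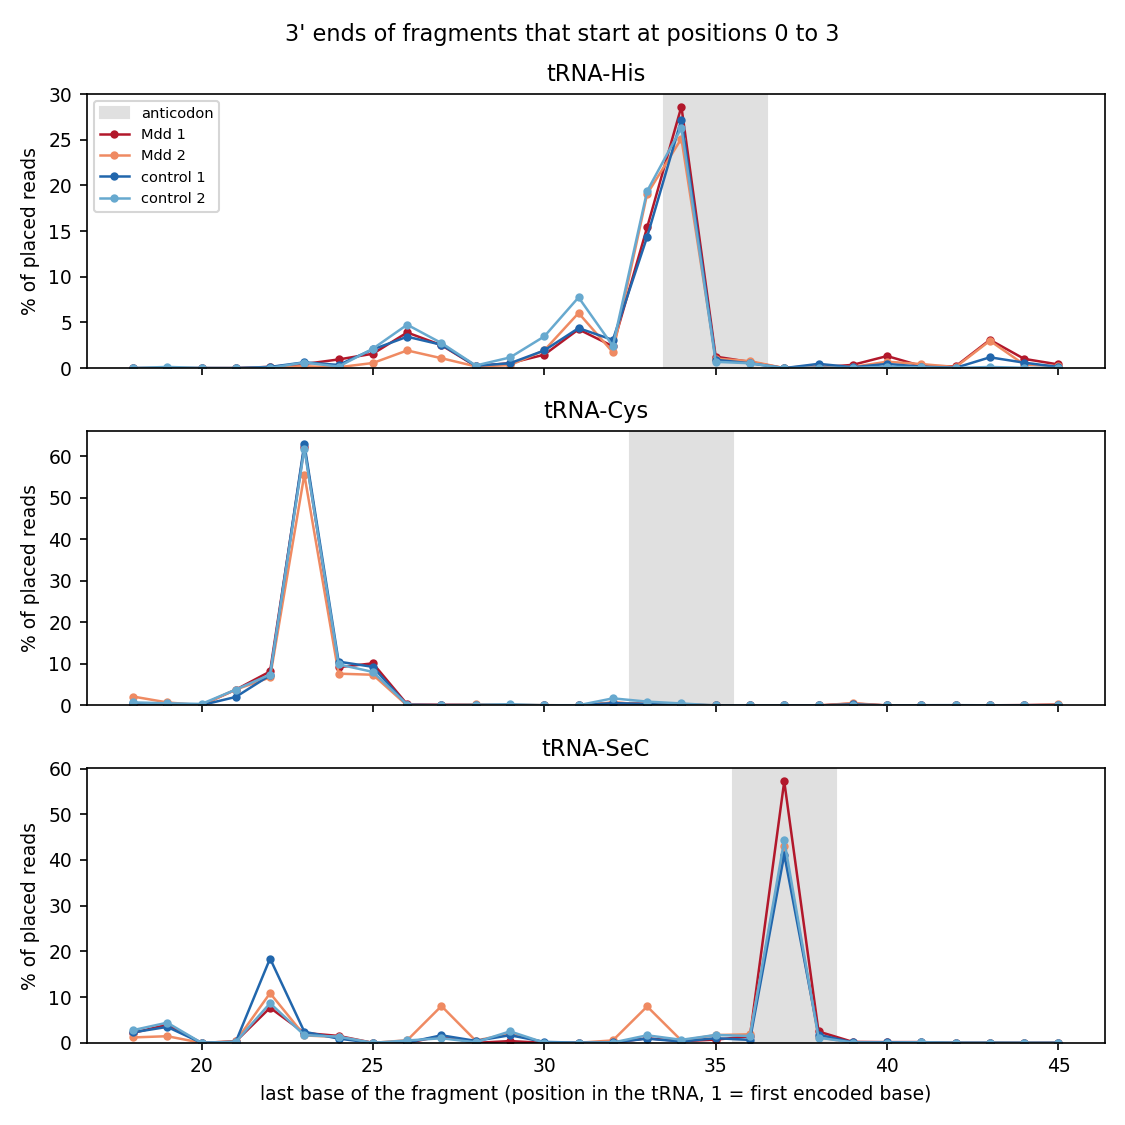
Last base of fragments that start at positions 0 to 3, in percent of all placed reads of the tRNA, 1 line per library, with the anticodon shaded. tRNA-His peaks at 33 and 34, tRNA-Cys at 23 and tRNA-SeC at 37 in all 4 libraries, and Mdd 2 has further peaks at 27 and 33 in tRNA-SeC.

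Ends in 2 guanines set Mdd 2 apart in these tRNAs. They were 2.98% and 20.6% of tRNA-SeC reads in the Mdd libraries and 5.08% and 4.96% in the control libraries. In tRNA-Cys they were 0.960% and 5.83% in the Mdd libraries and 1.17% and 0.941% in the control libraries, and in tRNA-His 0.184% and 1.08% in the Mdd libraries and 0.587% and 0.384% in the control libraries. Mdd 2 had the highest share in 18 of 21 amino acids. In tRNA-SeC, 5′ fragments ending at position 27 had 570 and 1615 reads in the Mdd libraries and 254 and 284 in the control libraries, and those ending at 33 had 435 and 1784 in the Mdd libraries and 160 and 468 in the control libraries.

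Ends in TGG were nearly missing from the same tRNAs. tRNA-SeC 5′ fragments ending at positions 20 and 25 had 0 reads in all 4 libraries, although those ending at 19 had 1717 and 341 reads in the Mdd libraries and 616 and 1255 in the control libraries. A count of 0 allows up to 3 reads. tRNA-His fragments ending at position 37 also had 0 reads in all 4. The letters TGG follow directly after 34.8% and 32.8% of tRNA-His reads in the Mdd libraries and 33.3% and 34.02% in the control libraries, including the most read fragment. Of all reads of 18 nt or longer, 0.0392% and 0.0377% in the Mdd libraries and 0.0610% and 0.102% in the control libraries ended in TGG, whereas AGG ended 1.70% and 17.4% in the Mdd libraries and 1.52% and 2.96% in the control libraries. Whether the preparation or the trimming shaped these ends, including position 34 of tRNA-His and position 22 of tRNA-SeC, was not tested.

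**Figure D4:**
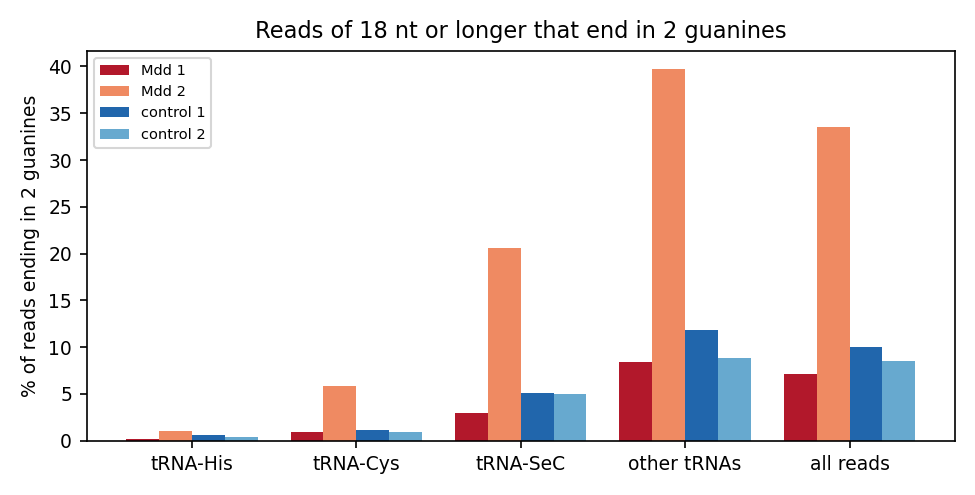
Share of reads of 18 nt or longer that end in 2 guanines, in percent, for each of the 3 tRNAs, all other tRNAs and all reads, 1 bar per library. Mdd 2 is the highest in every set, at 20.6% in tRNA-SeC and 33.6% in all reads.

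Single sequences were tested in edgeR over all 79093 annotated sequences that passed the filter on low counts. Sequences without annotation did not enter this test. Of those tested, 427 were members (242 of tRNA-His, 69 of tRNA-Cys and 116 of tRNA-SeC) holding 97.4% of member reads. No member and no other tested sequence was called at an adjusted p under 0.05 (0%). At an unadjusted p under 0.05, 3 members were higher and 29 lower in Mdd libraries, beside 1.26% higher and 12% lower of all tested. DESeq2 called 1 member, beside 0.25% of all tested. Libraries were separate in CPM for 5.39% of tested members higher and 33.5% lower in Mdd, beside 7.84% higher and 30.3% lower of all tested. Mdd 2 was the lowest library for 155 of 427 (36.3%), beside 23.9% of all tested. The median log2 change was −0.35 for tRNA-His, −0.54 for tRNA-Cys and −0.07 for tRNA-SeC, beside −0.04 for all tested sequences.

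**Figure D5:**
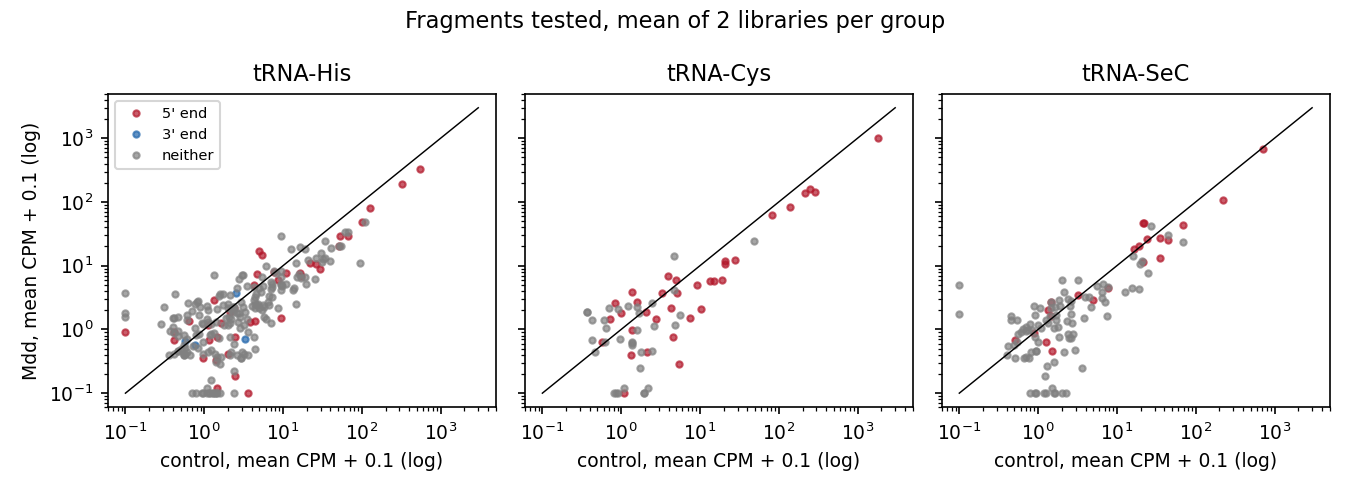
Mean CPM of each tested fragment in Mdd (vertical) against control (horizontal), both log axes with 0.1 CPM added, coloured by annotated end. The 5 most read fragments of each of tRNA-His, tRNA-Cys and tRNA-SeC lie below the diagonal. The leading tRNA-SeC fragment is close to it, at a mean of 689 CPM in Mdd and 718 CPM in control.

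The 2 sequences of lowest p in each direction are given as values. For tRNA-SeC the fragment 13 to 33 had 112 and 117 reads in the Mdd libraries and 0 in both control libraries, at least 19.7-fold higher in Mdd against the floor of 3 reads per library. It ends in 2 guanines and is the member that DESeq2 called. It passed the filter on low counts through the Mdd libraries alone, so that call is no support for a difference. The fragment 37 to 55 had 65 and 12 reads in the Mdd libraries and 0 in both control libraries. For tRNA-His, 38 to 64 had 132 and 42 reads in the Mdd libraries and 0 in both control libraries, and a fragment 0 to 42 had 18 and 21 reads in the Mdd libraries and 0 in the control libraries. For tRNA-Cys they were 43 to 64, given above, and the T16G fragment 1 to 34 with 103 and 17 reads in the Mdd libraries and 8 and 11 in the control libraries. Capitals mark the added guanine and anticodon bases, as above.
SeC 13 to 33: ctcagtggtctggggtgcagg
SeC 37 to 55: CAaacctgtagctgtttag
His 38 to 64: ccgcagcaacctcggttcgaatccgag
His 0 to 42: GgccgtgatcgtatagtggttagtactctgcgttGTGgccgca

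In the other direction all 6 had 0 reads in both Mdd libraries and 5 to 17 reads in each control library. The largest bound was at least 6.47-fold lower, for tRNA-SeC 34 to 62, with 6 and 17 control reads. For tRNA-His the fragment 37 to 64, which starts 1 base before the one above, had 0 reads in both Mdd libraries and 6 and 13 in the control libraries. For tRNA-Cys, 42 to 65 had 0 reads in both Mdd libraries and 7 and 13 in the control libraries. These 6 passed the filter on low counts through the control libraries alone, so no test is given for them.
His 37 to 64: gccgcagcaacctcggttcgaatccgag
Cys 42 to 65: gaggtccccggttcaaatccgggt
SeC 34 to 62: ctTCAaacctgtagctgtttagcgacaga

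Fragments of related lists were set beside these. The tRNA-His 5′ ends had 1052 and 666 CPM in the Mdd libraries and 1280 and 1651 CPM in the control libraries. For the other hormone-dependent fragments, tRNA-Asp 5′ ends had 2228 and 564 CPM in the Mdd libraries and 2069 and 1626 CPM in the control libraries, and tRNA-Lys-CTT 5′ ends had 2563 and 1769 CPM in the Mdd libraries and 2058 and 3403 CPM in the control libraries. The tRNA-Asp and tRNA-Lys-CTT groups overlapped and the tRNA-His groups did not. This was not particular to tRNA-His. In CPM, 5′ ends of tRNA-Asn, tRNA-Gln, tRNA-Gly, tRNA-Phe, tRNA-Pro and tRNA-Tyr were also lower in both Mdd libraries than in either control library. Shares of amino acid totals were separate for 19%, but that is another measure than CPM of 5′ ends. No weight is put on 1 of 3. Among 5′ ends that open with 4 or more guanines, tRNA-Cys had 2813 and 593 CPM in the Mdd libraries and 3212 and 2746 CPM in the control libraries, and tRNA-Ala had 2668 and 1510 CPM in the Mdd libraries and 7656 and 2422 CPM in the control libraries.

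By annotated end, 0 of 65 amino acid and end groups passed edgeR (0%), and 3 passed at an unadjusted p under 0.05 (4.62%), none of them from these 3 tRNAs. The 5′ ends of tRNA-His had a log2 change of −0.82 ± 0.69 (SE, edgeR adjusted p = 0.967) and its sequences of neither end −0.88 ± 0.66. Reads annotated as 3′ ends were 0.466% and 0.696% of tRNA-His in Mdd libraries and 0.316% and 0.264% in control libraries, without overlap. Their log2 change was 0.10 ± 0.61. Reads labelled as CCA ends were counted under neither end. Position 75, the last base of the joined tRNA-His, gave another picture. It was covered by 0.343% and 0.961% of placed reads in Mdd libraries and 0.527% and 0.344% in control libraries, with overlap. Over the 83 single values per library compared for the 3 tRNAs, the groups were separate in 22, and no exact permutation p fell below 1 after Benjamini-Hochberg adjustment.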

How the data were processed

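The authors deposited 1 table per library with a read count per distinct sequence, its length in nt, an annotation and whether it matched the genome. Per the submitters' processing notes, the build was mm9 and DESeq2 was used. The aligner is not given in the sources used here. Tables were joined by sequence, and lengths below 18 nt were left out. The members and lists were chosen with earlier results of these data known. Fragments were placed on tRNAs joined from overlaps of at least 12 bases, allowing 2 mismatches. edgeR 4.0.16 (R 4.3.3) quasi-likelihood tests with TMM scaling and filterByExpr ran on the deposited counts per annotated sequence, per amino acid and per end. Benjamini-Hochberg adjustment was over each whole table. The SE given with an edgeR log2 change is its absolute size divided by the square root of the test's F statistic. DESeq2 1.42.0 was an alternative. The edgeR test per sequence was tried on simulated counts. CPM scales counts to 1000000 reads of 18 nt or longer. Shares were compared with exact permutation tests (scipy 1.17.1). For shares taken over all reads of a tRNA, 95% Wilson intervals spanned at most ± 0.765 percentage points, for counting error only. For shares over fewer reads, such as those among loop-cut fragments, no interval was computed. A floor of 3 reads was 0.126 and 0.126 CPM in Mdd libraries and 0.309 and 0.179 CPM in control libraries. Named were, per tRNA, the 5 sequences of highest mean CPM and the 2 of lowest p per direction. Same-numbered libraries did not deviate together (r = 0.0359 over 84906 sequences). This check rests on 1 difference between libraries per group, so it cannot exclude a pairing. The libraries were treated as unpaired.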

Additional observations from a re-analysis of the deposited data

How the results depend on the processing

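With the replicate block, log2 changes were −0.59 for tRNA-His, −0.90 for tRNA-Cys and −0.15 for tRNA-SeC, and 0 members were called. The same-number check gave no sign of pairing but could not exclude it. The count of called members was 1 under DESeq2. With 1 library left out, the lone library of a group is assumed to vary like the other group, so calls are not counted. Without Mdd 1, tRNA-SeC 13 to 33, tRNA-SeC 2 to 33 and tRNA-Cys 20 to 44 had log2 changes of 9.74, 9.33 and 10.1. The last 2 were named after their values were seen. All 3 had 0 control reads, with 117, 88 and 152 reads in Mdd 2, so these changes are no support. With reads from 15 nt included, log2 totals were −0.25 for tRNA-His, −0.15 for tRNA-Cys and 0.26 for tRNA-SeC, the last turned positive, as it also was with genome-matched sequences only (0.0088). The Mdd minus control difference in share of tRNA reads then was −0.196 points for tRNA-His, −0.124 for tRNA-Cys and 0.0743 for tRNA-SeC, against −0.431, −0.509 and −0.0860 from 18 nt. That in 5′ share was 8.56, −0.427 and 9.73 points in the same order, against 0.929, −4.03 and 5.61. That in mean length was 3.33, 0.478 and 3.50 nt, against 1.04, −0.0506 and 1.29 nt, so that of tRNA-Cys turned positive. With 1 library left out, the Mdd minus control range was −0.142 to 0.0411 nt for tRNA-Cys length (positive without Mdd 2), 0.675 to 1.90 nt for tRNA-SeC length, −2.12 to 3.98 points for the tRNA-His 5′ share, −9.44 to 1.38 for tRNA-Cys, −0.970 to −0.0482 for the tRNA-Cys share of tRNA reads and −0.231 to 0.0595 for the tRNA-SeC share of tRNA reads. Ranges of log2 totals were −0.76 to −0.49 for tRNA-His, −1.79 to −0.28 for tRNA-Cys and −0.46 to −0.08 for tRNA-SeC. The cause of these moves was not tested. Scaling by all reads took the median of all tested sequences to −0.42. With 2 libraries a group, an exact test cannot pass 0.05, and 0 to 17 reads limit the rare fragments.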
